A study of Mus musculus with 217 samples.

Results

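Of the 52550 genes counted in this series, 10 genes of MHC class I antigen presentation are described here: B2m, H2-K1, H2-D1, Tap1, Tap2, Tapbp, Psmb8, Psmb9, Psmb10 and Nlrc5. They were chosen by name for their role in the pathway, and the rule for choosing them used no measured value. Earlier results of these data were, however, known when they were chosen. RNA was pulled down with ribosomes from brain, lung and heart of adult C57BL/6J mice of the genotype Cdh5CreERT2/+; Rpl22HA/+, in which a tamoxifen-inducible Cre under control of the endothelial Cdh5 gene puts an HA tag on the ribosomal protein RPL22, so that an anti-HA antibody brings down RNA on endothelial ribosomes. Every mouse, controls included, received 5 mg of tamoxifen by gavage 4 times at 4 to 6 weeks of age. The LPS groups had an intraperitoneal injection of lipopolysaccharide (LPS, a bacterial cell wall product that sets off systemic inflammation) at 10 mg/kg and were taken 6, 24, 48, 72 or 168 hr later, and the 0 hr mice are labelled as controls. Of 98 libraries, 80 were used (28 brain, 24 lung and 28 heart), since 18 had under 3% of their reads on genes. At 0, 6, 24, 48, 72 and 168 hr the brain and the heart each kept 5, 5, 4, 6, 4 and 4 libraries, and the lung kept 4, 4, 2, 6, 4 and 4. No label says that the replicates of a group were separate animals, so a p-value here measures the spread between libraries, which may in part be technical.

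MHC class I molecules show pieces of the proteins made inside a cell to CD8 T cells. Proteins are cut by the proteasome, whose constitutive catalytic subunits can be replaced by the inducible subunits Psmb8, Psmb9 and Psmb10 to form the immunoproteasome. The peptides are carried into the endoplasmic reticulum by the transporter made of Tap1 and Tap2, Tapbp (tapasin) helps to load them onto the heavy chains H2-K1 and H2-D1, and B2m is the light chain without which the complex does not reach the surface. Nlrc5 is the transactivator of this gene set, and interferon is its best known inducer. Endothelial cells carry class I molecules at rest, and they are among the cells a circulating T cell meets.

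In the mm10 assembly, 7 of the 10 genes lie on chromosome 17 within or next to the MHC: Tapbp at chr17:33915899-33929292, H2-K1 at chr17:33996017-34000347, Psmb9 at chr17:34181987-34187764, Tap1 at chr17:34187553-34197225, Psmb8 at chr17:34197721-34201454, Tap2 at chr17:34203527-34216321 and H2-D1 at chr17:35262730-35267499. B2m is at chr2:122147686-122153083, and Nlrc5 and Psmb10 are on chromosome 8 at chr8:94434356-94527272 and chr8:105935735-105938444. All 10 are annotated as protein coding. Tap1 and Psmb9 are transcribed away from each other, and their annotated exons overlap by 212 bases on opposite strands. Psmb8 shares 498 exon bases with the antisense transcript Gm20496, Tap2 shares 533 with Gm15821, and Tapbp shares 904 with Gm19412 and 149 with Zbtb22 on its own strand. The strand setting of the counting is not given in the sources used here, so reads in these stretches cannot be assigned to either partner. H2-K1 and H2-D1 are near-identical paralogues within a large family, and reads that match several of its genes make their counts uncertain.

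The promoters of the surface proteins carry a compact group of short motifs, and they are shown because the 3 genes of the class I complex share it while the 5 other members with a promoter window do not. The bases just upstream of the H2-K1 and B2m start sites, from the RefSeq promoter table of GRCm38.p6 (the assembly also called mm10), follow 5′ to 3′. The capitals mark matches on either strand to the letters GGNNNTTCC (a form of the NF-kappaB site), AANNGAAA (the core bound by interferon regulatory factors), TGACG (the cAMP-response core) and CCAAT. The first covers chr17:34000348-34000547 on the minus strand, and the second covers chr2:122147486-122147685 on the plus strand.
H2-K1: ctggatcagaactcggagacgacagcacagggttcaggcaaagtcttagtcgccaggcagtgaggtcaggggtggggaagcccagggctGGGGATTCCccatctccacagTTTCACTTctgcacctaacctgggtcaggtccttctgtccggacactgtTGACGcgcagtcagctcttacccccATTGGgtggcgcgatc
B2m: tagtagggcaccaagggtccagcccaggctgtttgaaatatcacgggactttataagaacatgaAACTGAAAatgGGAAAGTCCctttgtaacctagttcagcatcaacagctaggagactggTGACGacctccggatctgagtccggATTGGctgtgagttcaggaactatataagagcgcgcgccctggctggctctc

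The NF-kappaB-like and IRF matches stand side by side in the heavy chain promoters, and the same stretch in H2-K1 (chr17:34000430-34000458, minus strand) and H2-D1 (chr17:35262923-35262951, plus strand) shows how alike they are, with 28 of 29 bases identical.
H2-K1 element: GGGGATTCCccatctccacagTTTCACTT
H2-D1 element: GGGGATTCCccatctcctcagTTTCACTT
Promoter windows were matched for 8 of the 10 members, and Tap2 and Nlrc5 had none. B2m, H2-K1 and H2-D1 held all 4 motifs within 250 bases upstream to 50 bases downstream of the start, as did 0.222% of the 32851 mouse windows. Singly the motifs are common: AANNGAAA was in 21.3% of windows, TGACG in 17.8%, CCAAT in 33.8% and GGNNNTTCC in 15.7%. Tap1 and Psmb9 held TGACG and CCAAT, as did 6.12% of windows, Tapbp held CCAAT alone, and no match was found in the windows of Psmb8 and Psmb10. These motifs were picked with the promoters in view, and a match describes letters, not a bound site.

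The 80 libraries held between 284457 and 43417945 counts on genes. A level below is in CPM (counts scaled to library size) after TMM scaling, and a fold change is on the log2 scale with its standard error (SE), from edgeR's quasi-likelihood test with the p-value adjusted over all genes tested in the tissue and called below 0.05. Brain and heart libraries had 53.4% to 70.0% and 43.7% to 68.9% of their reads on genes, while lung libraries ranged from 3.40% to 61.0% with a median of 28.6%. The file names show 4 library series, which entered every fit as a covariate, and the 18 libraries left out were the whole of series 3. Only series 1 and 2 hold 0 hr libraries, so a 24 to 168 hr library of series 4 is compared with controls of other series. The 12 endothelial markers were found in every tissue at 0 hr, with sums of 2711 to 5234 CPM in brain, 12363 to 14111 in heart and 13987 to 22248 in lung. Markers of the surrounding tissue were there too: astrocyte and oligodendrocyte markers summed to 860 to 6806 CPM and neuron markers to 968 to 4040 in brain, cardiomyocyte markers to 3304 to 6653 in heart and alveolar epithelial markers to 2053 to 8828 in lung. In such bulk RNA, fewer cells of a type and less RNA per cell cannot be told apart.

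The library labelled 6 hr in series 1 stood apart in brain and heart, and less clearly in lung: brain replicate 6, heart replicate 5 and lung replicate 4, which share 1 animal code. Of 8 genes that LPS is known to raise sharply (Selp, Sele, Icam1, Cxcl1, Cxcl10, Ccl2, Saa3 and Il6), 8 lay within the range of the 0 hr libraries in the brain library, 3 in the heart library and 1 in the lung library, while 8, 8 and 4 of the 8 lay below every 6 hr library of series 2 in these tissues. These 8 genes were named after values of these libraries had been seen. Saa3, an acute phase protein, was at 1.08 CPM in the brain library, against 0.0774 to 1.62 at 0 hr and 1328 to 1523 in the other 6 hr libraries. In heart Saa3 was at 0.957 CPM, against 764 to 1170 in the other 6 hr libraries. The libraries are kept under their labels here, and each 6 hr result is given with and without them. The lung library of this set is also the shallowest, where 1 count is worth 28.9 CPM, and its Tap1, Psmb8, Psmb9 and Nlrc5 counts were 0, which allows up to 86.7 CPM at 3 counts and covers counting error only.

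At rest, heart and lung libraries held far more RNA of most members of this pathway than brain libraries did. The endothelial marker sum was lower in brain too, with a median of 3579 CPM at 0 hr against 12711 in heart and 17162 in lung. The part of that gap in the class I differences was not tested. At 0 hr 9 of 10 members were lower in brain than in lung, where 21.2% of all genes were lower, and 9 of 10 were lower in brain than in heart, where 15.3% of all genes were. The heavy chain H2-K1 was at 307.5, 306.7, 183, 196 and 160 CPM in the 5 brain libraries. In heart it was at 2799, 1781, 2331, 1365 and 1363 CPM, and in lung at 1265, 2999, 1672 and 1267 CPM. The brain values thus lay below every heart and lung value. The log2 difference of H2-K1 was -3.06 ± 0.40 (SE) between brain and heart (adjusted p = 1.58e-09) and -2.97 ± 0.41 between brain and lung (adjusted p = 9.72e-09).

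H2-D1 followed the same order, at 235 to 444 CPM in brain, 1687 to 2937 in heart and 1099 to 3781 in lung. The light chain B2m did not. It was at 496 to 1161 CPM in brain and 2030 to 3900 in heart, a log2 difference of -1.73 ± 0.40, but at 158, 174, 174 and 1368 CPM in lung. The lung library at 1368 CPM, replicate 4, was the only one of the 4 above the brain range. B2m was lower in lung than in heart by -2.63 ± 0.45 on the log2 scale, the only one of the members called lower there among 23.7% of genes, and its brain to lung difference of 0.90 ± 0.42 missed the threshold (adjusted p = 0.0611).

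Several genes that supply peptides had their highest mean levels in lung. Psmb10, the inducible subunit that replaces Psmb7, was at 736 to 3162 CPM in lung, 135 to 237 in heart and 93.1 to 130 in brain, so that the lung libraries lay above all others. Against heart it was higher by 3.16 ± 0.44 on the log2 scale, and Tap2 (2.18 ± 0.49), Tap1 (1.28 ± 0.54, adjusted p = 0.0422) and Psmb8 (1.03 ± 0.43, adjusted p = 0.0423) were called higher as well, 4 of 10 members beside 25.4% of all genes, and 2 of 10 when any of 7 libraries (heart replicates 2 to 5 or lung replicates 1 to 3 at 0 hr) was left out. The lung controls differed in their share of reads on genes: 18.8%, 19.2% and 28.6% in replicates 1 to 3, 56.2% in replicate 4. Replicate 4 was the lowest of them for Psmb10 (736 CPM), Tap2 (500), Tap1 (141) and Psmb8 (290). Its Tap1 and Psmb8 lay within the heart ranges of 82.7 to 158 and 201 to 327 CPM. The part of the share in the lung to heart differences was not tested. H2-K1, H2-D1, Tapbp, Psmb9 and Nlrc5 were not called between lung and heart, with log2 differences of -0.29 to 0.65. Between brain and heart only Psmb10 missed the threshold, at -0.91 ± 0.40 (adjusted p = 0.054).

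Levels of different genes can be set side by side only per length of transcript. In CPM per kilobase of exon at 0 hr, B2m led in brain (960 ± 332, SD, n = 5) and heart (3158 ± 817, n = 5), followed by H2-D1 (133 ± 34.7 and 867 ± 223) and H2-K1 (78.5 ± 24.1 and 656 ± 214). In lung the order opened with Psmb10 (1111 ± 582, n = 4), H2-D1 (725 ± 496), H2-K1 (613 ± 280) and B2m (545 ± 697), values whose SDs overlap. Psmb10 and Tapbp came next in brain (65.4 ± 7.73 and 50.7 ± 14.4) and in heart (119 ± 23.6 and 118 ± 10.9), again within their spread. The order ended in each tissue with Psmb9, Tap1 and Nlrc5. The transactivator Nlrc5 was lowest throughout, at 0.359 ± 0.115 in brain, 2.15 ± 0.916 in heart and 1.89 ± 0.780 in lung.

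**Figure D1:**
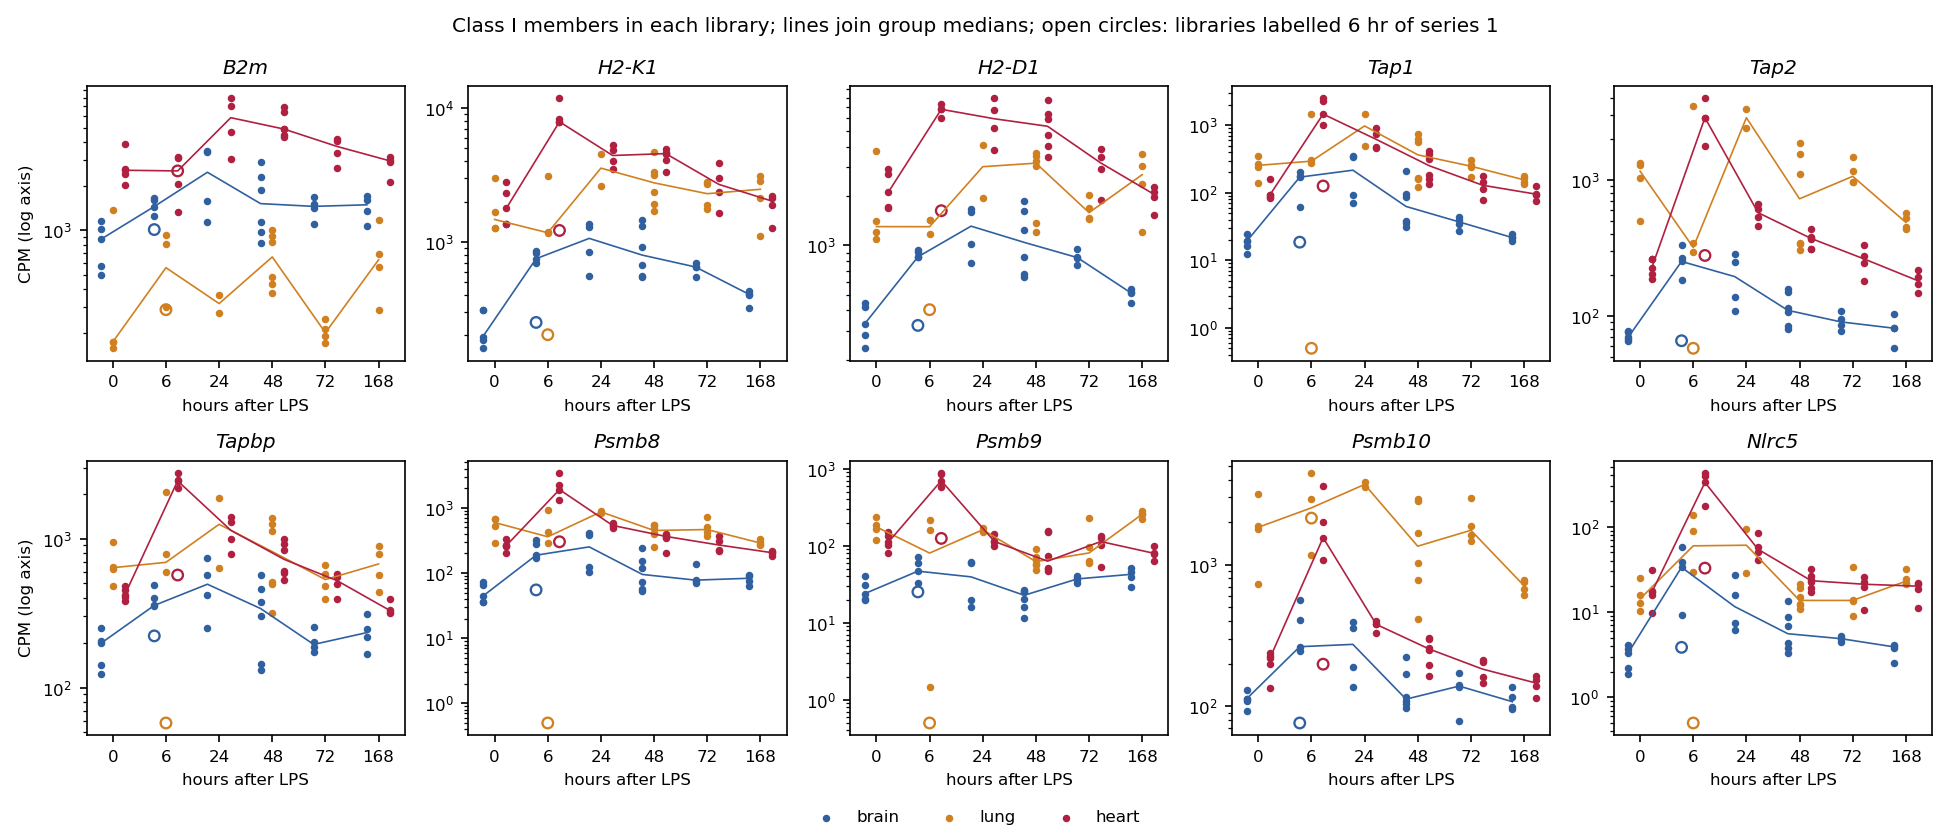
CPM of each member (log axis) in each of the 80 libraries against hours after LPS, with brain, lung and heart in separate colours, lines through the group medians and open circles for the libraries labelled 6 hr in series 1. Brain points lie lowest for most members at 0 hr. The 6 hr rise of most members in brain and heart is carried by the filled points. Several brain medians, such as those of B2m and H2-K1, are higher still at 24 hr. Lung points scatter widely, and the medians of several members, such as Tap1 and Tap2, are highest at 24 hr (2 libraries). Values of 0 are drawn at 0.5 CPM.

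In the brain libraries RNA of most members was higher at 6 hr after LPS. With all kept libraries, 9 of 10 members were called higher at 6 hr, all but Psmb9, beside 4.21% of all genes, and their median log2 fold change was 1.42 against 0.00 for all genes tested. With all 3 tissues in 1 fit 5 of 10 were called (H2-K1, H2-D1, Tap1, Psmb8 and Nlrc5), and the share of all genes called in that fit is not given here. Without the series 1 library 10 of 10 were called higher, beside 7.63% of genes, with a median of 1.77. No member had every 6 hr library above every 0 hr library until that library was set aside, and then 9 of 10 did (6.96% of all genes), all but Psmb9. Within series 2 the mean log2 CPM at 6 hr exceeded that at 0 hr for 10 of 10 members (median log2 difference 1.75, 4 libraries against 3). The series 1 library exceeded the mean of its own controls for 0 of 10 (median -0.22, 1 library against 2). Such counts within a series compare means, and the share of all genes is not given for them.

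The transactivator had the largest fold change. Nlrc5 was at 4.13, 3.71, 2.19, 1.86 and 3.34 CPM at 0 hr and at 38.3, 57.9, 33.5 and 9.17 CPM in the 6 hr libraries of series 2, with 3.85 CPM in the series 1 library. All 4 series 2 libraries lay above the controls and the other lay among them. The log2 fold change was 3.23 ± 0.56 (adjusted p = 0.00071), and 3.68 ± 0.46 without the series 1 library.

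The transporter subunit Tap1 came next. Tap1 was at 24.7, 16.4, 12.5, 19.0 and 19.4 CPM at 0 hr and at 202, 170.2, 176 and 61.7 CPM in the 6 hr libraries of series 2, against 18.6 CPM in the series 1 library. Its log2 fold change was 2.81 ± 0.52 (adjusted p = 0.00123), and 3.24 ± 0.41 without that library. Tap2, its partner, rose by 1.56 ± 0.29, from 65.3 to 77.4 CPM at 0 hr to 184 to 331 CPM in series 2, and the chaperone Tapbp rose by 1.14 ± 0.29.

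Among the inducible proteasome subunits, Psmb8 rose by 2.12 ± 0.36 (adjusted p = 0.000536). It was at 71.9, 66.7, 35.8, 44.4 and 35.7 CPM at 0 hr and at 327, 188, 277 and 172 CPM in the series 2 libraries at 6 hr, with 55.1 CPM in the series 1 library. Psmb10 rose by 1.28 ± 0.29. Psmb9 was the weakest, at 19.7 to 40.8 CPM at 0 hr and 33.3 to 71.4 CPM in the series 2 libraries, which overlap. Its log2 fold change was 0.77 ± 0.35 (adjusted p = 0.224), and 1.03 ± 0.35 without the series 1 library (adjusted p = 0.0496).

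All 3 chains of the surface complex rose as well. H2-K1 was at 857, 748, 819 and 692 CPM in the series 2 libraries at 6 hr and at 249.7 CPM in the series 1 library, against the 160 to 307.5 CPM of the controls, a log2 fold change of 1.63 ± 0.29 (adjusted p = 0.000933). H2-D1 rose by 1.24 ± 0.26 and B2m by 0.87 ± 0.25. B2m was at 1665, 1251, 1618 and 1455 CPM in series 2, above its highest control of 1161 CPM.

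From 24 hr on fewer members were called, and the heavy chains were the last to remain. The members called higher numbered 6 of 10 at 24 hr (B2m, H2-K1, H2-D1, Tap1, Tap2 and Psmb8, beside 6.52% of genes), 3 at 48 hr (H2-K1, H2-D1 and Tap1, beside 8.11%), 2 at 72 hr (H2-K1 and H2-D1, beside 2.98%) and 0 at 168 hr (beside 0%). With all 3 tissues in 1 fit the 72 hr count was 0. Without the series 1 library labelled 6 hr, which also enters the estimate of the spread, 9 members passed at 24 hr, all but Psmb9, beside 7.46% of genes. Every 24 hr library lay above every control for 8 of 10 members, beside 10.2% of genes.

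H2-K1 shows the plateau. It was at 842, 560, 1280 and 1348 CPM at 24 hr, at 545 to 1450 CPM with a median between the 6 libraries of 795 at 48 hr, and at 649, 542, 694 and 649 CPM at 72 hr, every library above the highest control of 307.5 CPM. At 168 hr it was at 318, 410, 403 and 430 CPM, still above every control in CPM, though the fitted log2 fold change was 0.34 ± 0.31 (adjusted p = 0.903). The log2 fold changes at 24, 48 and 72 hr were 1.71 ± 0.31, 1.71 ± 0.28 and 1.38 ± 0.29. H2-D1 ran alongside at 1.47 ± 0.28, 1.47 ± 0.26 and 1.21 ± 0.27. Between 72 and 168 hr both fell, H2-D1 by -1.06 ± 0.30 (adjusted p = 0.0291) and H2-K1 by -1.04 ± 0.32 (adjusted p = 0.0463), 2 of 10 members beside 4.81% of genes, a count that was 0 without any of 5 libraries (replicates 2, 3 and 5 at 72 hr, 4 and 5 at 168 hr).

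Tap1 was at 71.7, 91.9, 339.5 and 352 CPM at 24 hr and at 39.5, 26.9, 34.5 and 43.7 CPM at 72 hr, so every 72 hr library was still above the highest control of 24.7 CPM but by much less than at 24 hr. Its log2 fold change went from 2.72 ± 0.55 at 24 hr to 1.64 ± 0.49 at 48 hr and 0.75 ± 0.50 at 72 hr (adjusted p = 0.497). Nlrc5 was at 7.40, 6.11, 27.0 and 15.8 CPM at 24 hr, a log2 fold change of 1.72 ± 0.58 that missed the threshold (adjusted p = 0.0567). The edgeR test of the fall from 6 to 24 hr passed for 0 of 10 members (0.026% of genes were called lower, and Nlrc5 alone had an unadjusted p under 0.05), and for 0 of 10 without the series 1 library (0.494% of genes), where Nlrc5 came nearest at -2.01 ± 0.52 (adjusted p = 0.0577).

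The later brain libraries differed by series. At 24 hr the series 4 libraries were the highest for every member, and at 48 hr for all but Tap1, Psmb9 and Nlrc5, such as B2m at 3404 and 3498 CPM at 24 hr against 1575 and 1137 CPM in the other series. Within a series, the series 1 library at 24 hr exceeded the mean of its own controls for 9 of 10 members (median log2 difference 0.88, 1 library against 2). The series 2 library did so for 9 of 10 (median 1.09, 1 against 3). The share of all genes is not given for these counts. At 72 hr the medians within series were 0.28 and 0.90. In the same brain libraries the endothelial marker sum was 1860 to 3370 CPM at 6 hr against 2711 to 5234 CPM at 0 hr, with 5 of 12 markers called lower (beside 2.23% of all genes) and 1 higher, and macrophage markers were called higher for 1 of 8 at 6 hr, while the counts at 24, 48 and 72 hr were 2, 7 and 6. Neutrophil markers were called higher for 1 of 6 tested at 6 hr and 5 of 6 at 48 hr, and neuron markers, at 507.6 to 3693 CPM at 24 hr, for 0 of 5. Pan-leukocyte markers were called higher for 4 of 5 at 48 hr, and fibroblast and mural markers, with a median sum of 1112 CPM at 0 hr and 3957 CPM at 24 hr, for 1 of 6 at 24 hr. Markers of T, NK and B cells summed to at most 5.01 CPM between 6 and 72 hr. The part of these shifts in the class I levels was not tested.

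**Figure D2:**
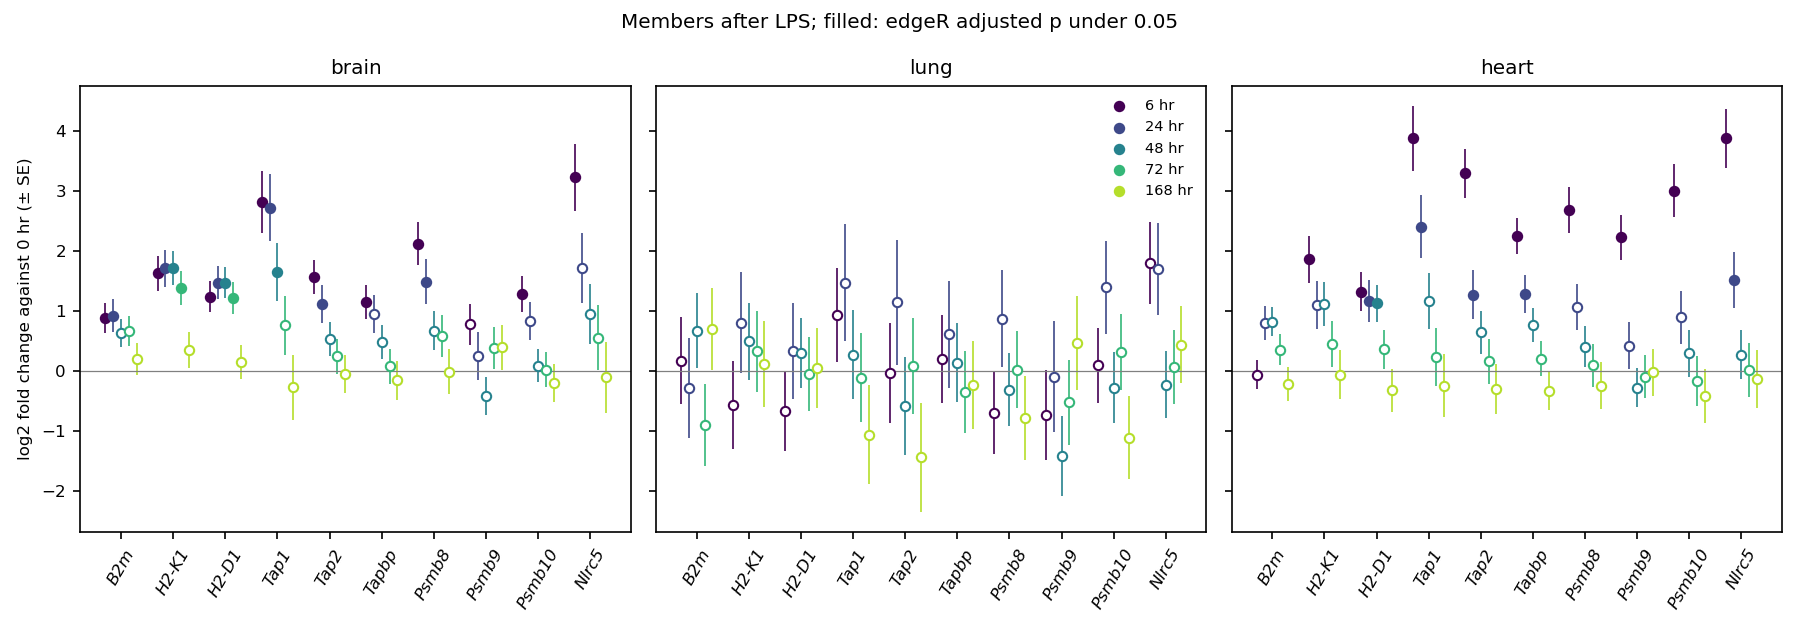
Fitted log2 fold change of each member against 0 hr in brain, lung and heart (vertical axis, bars are SE), coloured by time after LPS and filled where the adjusted p was below 0.05. Filled points cluster at 6 and 24 hr in brain and heart, persist to 72 hr for H2-K1 and H2-D1 in brain, and are absent in lung.

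The heart libraries also held more RNA of the pathway at 6 hr, apart from its light chain. At 6 hr 9 of 10 members were called higher, all but B2m, with a median log2 fold change of 2.47 against -0.05 for all genes, and without the series 1 library the same 9 passed with a median of 2.86. This tissue changed widely, and 22.4% of all genes were called higher, or 27.8% without that library. Every 6 hr library of series 2 lay above every control for 9 of 10 members, beside 17.9% of genes. Within series 2, 9 of 10 members had a higher mean log2 CPM than their own controls (median log2 difference 3.03). In series 1, 5 of 10 did (median -0.09). The share of all genes is not given for these counts.

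Nlrc5 and Tap1 had the largest fold changes. Nlrc5 was at 31.0, 17.0, 17.7, 16.0 and 9.75 CPM at 0 hr and at 425, 331, 397 and 175 CPM in the 6 hr libraries of series 2, with 32.7 CPM in the series 1 library, just above the controls. The log2 fold change was 3.88 ± 0.49 (adjusted p = 1.23e-05), and 4.34 ± 0.34 without it. Tap1 was at 82.7 to 158 CPM at 0 hr and at 2304, 1458, 2480 and 989 CPM in series 2, against 126 CPM in the series 1 library, a log2 fold change of 3.88 ± 0.54 (adjusted p = 2.25e-05).

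Tap2 rose by 3.30 ± 0.41 and Tapbp by 2.25 ± 0.30, so that the transporter and the loading chaperone all moved. Psmb10 was at 2019, 1555, 3594 and 1081 CPM in series 2 against 135 to 237 CPM in the controls, a log2 fold change of 3.01 ± 0.45. Psmb8 rose by 2.68 ± 0.38 and Psmb9, which did not pass in brain with all libraries, by 2.23 ± 0.38 (adjusted p = 0.000126). All 3 inducible proteasome subunits thus passed in heart.

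The heavy chains rose while the light chain did not. H2-K1 was at 7813, 8308, 11786 and 7893 CPM in series 2 at 6 hr and at 1216 CPM in the series 1 library, against 1363 to 2799 CPM in the controls, a log2 fold change of 1.86 ± 0.39 (adjusted p = 0.00107). H2-D1 rose by 1.32 ± 0.33. B2m was at 1335, 3105, 2062 and 3151 CPM in series 2 and 2542 CPM in series 1, within or below the 2030 to 3900 CPM of the controls, and its log2 fold change was -0.07 ± 0.25 (adjusted p = 0.843), or -0.01 ± 0.26 without the series 1 library.

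By 24 hr most heart values were lower than at 6 hr, while B2m was higher. Called higher at 24 hr were 5 of 10 members (H2-D1, Tap1, Tap2, Tapbp and Nlrc5, beside 9.07% of genes), at 48 hr 1 (H2-D1, beside 3.08%), at 72 hr 0 (beside 0.275%) and at 168 hr 0 (beside 0%). Without the series 1 library labelled 6 hr, 9 passed at 24 hr, all but Psmb9, beside 13.3% of genes, and 5 passed at 48 hr (B2m, H2-K1, H2-D1, Tap1 and Tapbp), beside 5.37%. Leaving out any of 8 other libraries (replicates 2 to 5 at 0 hr, or any at 24 hr) took the 24 hr count to 2 or 3, and leaving out any single 0 hr library took the 48 hr count to 0, and with all 3 tissues in 1 fit the counts were 1 and 0. Every 24 hr library lay above every control for 8 of 10 members, beside 18.6% of genes.

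The drop itself was tested between 6 and 24 hr. Nlrc5 fell by -2.37 ± 0.53 on the log2 scale (adjusted p = 0.0174), and Psmb10 (-2.11 ± 0.50), Tap2 (-2.03 ± 0.46), Psmb9 (-1.81 ± 0.43) and Psmb8 (-1.61 ± 0.43) fell with it, 5 of 10 members beside 2.92% of genes. The count was 0 without replicate 2 at 24 hr, 2 without replicate 1 at 24 hr and 3 without replicate 1 or 3 at 6 hr. Without the series 1 library 8 of 10 fell, all but B2m and H2-D1, beside 15.2% of genes, and B2m rose by 0.80 ± 0.30 (adjusted p = 0.0456). B2m was at 4645, 3086, 7068 and 7911 CPM at 24 hr and at 4347 to 6899 CPM at 48 hr, where every library exceeded the highest control of 3900 CPM. Its log2 fold changes of 0.79 ± 0.28 and 0.82 ± 0.24 against 0 hr both missed the threshold with all libraries (adjusted p = 0.0533 for each).

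At 168 hr no heart member was called by edgeR, with log2 fold changes of -0.43 to -0.03. Tapbp was at 318, 396, 333 and 323 CPM, so that 3 of 4 libraries lay below its lowest control of 379 CPM. In series 1, the one series with both times, 0 of 10 members had a mean above that of their own controls (median log2 difference -0.45, 2 libraries against 2). Within series 1 the 24 hr library exceeded the mean of its controls for 9 of 10 members (median log2 difference 0.69) and within series 2 for 10 of 10 (median 1.16). The share of all genes is not given for these counts within a series. The endothelial marker sum was 5306 to 13437 CPM at 6 hr against 12363 to 14111 CPM at 0 hr, with 9 of 12 markers called lower, beside 20.3% of all genes. Neutrophil markers rose from sums of 0.574 to 0.877 CPM at 0 hr to 0.510 to 58.6 CPM at 6 hr, with 6 of 6 tested called higher, as at 48 hr, when 4 of 5 pan-leukocyte and 4 of 8 macrophage markers were called higher too. Fibroblast and mural markers had median sums of 347 CPM at 0 hr, 768 CPM at 24 hr and 977 CPM at 48 hr, with 1 of 6 called higher at each of the later times. At 6 hr the whole pan-leukocyte set summed to 6.63 to 18.8 CPM against 6.78 to 12.7 CPM at 0 hr, and T, NK and B cell markers to at most 2.39 CPM at any time. Whether these shifts had a part in the class I levels was not tested.

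**Figure D3:**
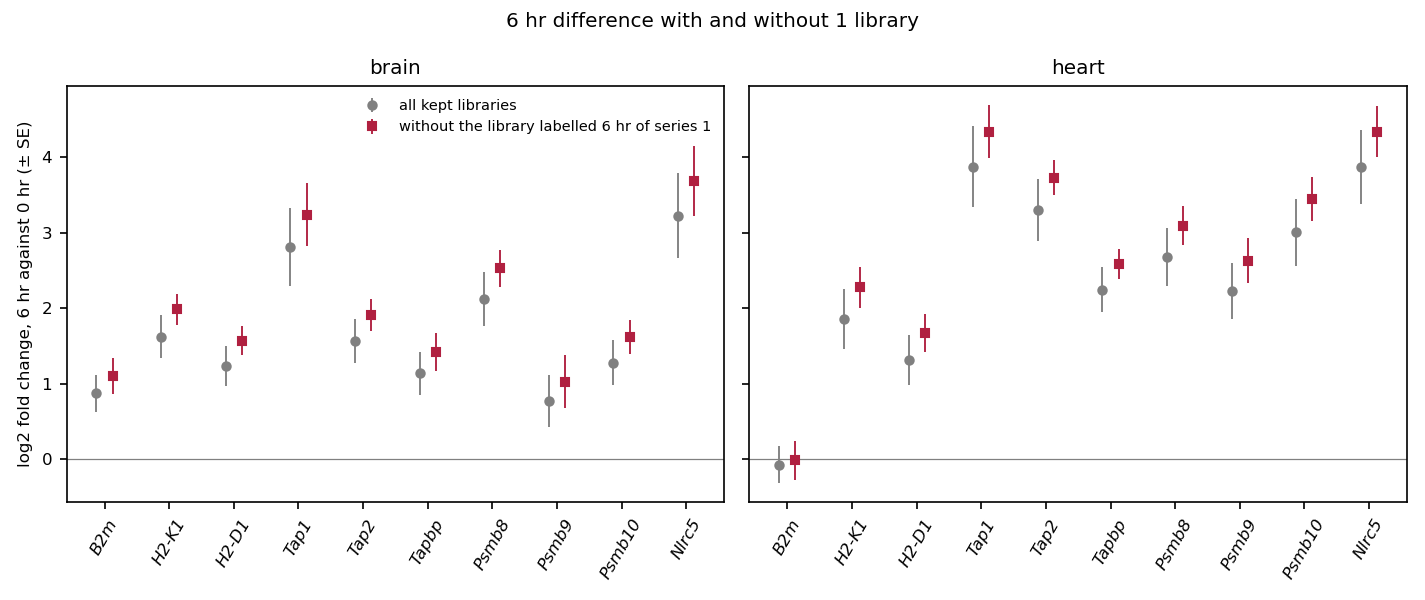
Log2 fold change of each member between 6 and 0 hr (vertical axis, bars are SE) in brain and heart, with all kept libraries and without the library labelled 6 hr in series 1. Setting the library aside moves most members upward in both tissues and leaves B2m in heart at -0.01.

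In lung no member passed the edgeR test of its tissue at any time. The count was 0 of 10 at 6 hr (beside 2.56% of genes called higher), 24 hr (0.363%), 48 hr (0.428%), 72 hr (0.17%) and 168 hr (0%), and it was 0 at 6 hr without the series 1 library too (2.38%). These are edgeR counts, and an unadjusted p under 0.05 was reached by Nlrc5 at 6 and 24 hr, by Psmb9 at 48 hr and by no member at 72 and 168 hr. At 6 hr DESeq2 called 1 member, Nlrc5 (2.22, adjusted p = 0.00187), as did edgeR with RLE scaling (2.17, adjusted p = 0.0465) and with all 3 tissues in 1 fit (2.20, adjusted p = 0.00195). Without replicate 3 at 6 hr, edgeR called Tap2 lower by -2.41 (adjusted p = 0.00742). The SE was 0.63 to 0.83 at 6 hr, against 0.25 to 0.56 in brain, and the median of all genes at 6 hr was itself shifted, at -0.42.

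Nlrc5 came nearest to a rise. It was at 12.8, 25.3, 15.8 and 10.2 CPM at 0 hr and at 29.9, 137 and 89.6 CPM in the 6 hr libraries of series 2, each above the controls, with 0 counts in the shallow series 1 library. The log2 fold change was 1.80 ± 0.69 (adjusted p = 0.117), and 2.15 ± 0.67 without that library (adjusted p = 0.0635). At 24 hr it was at 28.3 and 93.1 CPM in the 2 libraries, and at 48 hr between 11.0 and 21.1 CPM. Both 24 hr libraries lay above every control for 5 of 10 members (Tap1, Tap2, Psmb8, Psmb10 and Nlrc5). The share of all genes that did so is not given here. The median log2 fold change of the members at 24 hr was 0.84, against -0.12 for all genes, with none called.

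The lung libraries spread widely within a group at 6 hr. The heavy chain H2-K1 was at 202, 1163, 1176 and 3100 CPM at 6 hr, which encloses the 1265 to 2999 CPM of the controls, and its log2 fold change was -0.57 ± 0.73. At 72 hr its libraries lay closer, at 1755 to 2786 CPM, and those of H2-D1 at 1459 to 2034 CPM. Tap2 was at 57.8, 294, 344 and 3505 CPM at 6 hr, a range of more than an order of magnitude within a group. B2m was at 289, 812, 926 and 303 CPM at 6 hr and at 376 to 1011 CPM at 48 hr.

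Over all times and series together, the lung levels of some members went with how much of a library fell on genes. That share differed between times, from 3.40% to 33.9% at 6 hr and from 23.8% to 61.0% at 168 hr. The permutations took no account of time or series, and no correlation was made within a time. The r and p below thus do not measure the spread within a group. Levels were taken as log2 CPM with a prior count of 2. Across the 24 lung libraries, H2-D1 and the percent of reads on genes had a Pearson r of 0.81 and a Spearman rho of 0.82 (adjusted permutation p = 1e-04, the smallest the permutations allow, and 0.0003). The r was 0.80 without the 2 libraries farthest from the median share. Within series the r was 0.94 (9 libraries), 0.41 (9) and 0.05 (6), so the relation did not hold within series 4. H2-K1 (r = 0.63, rho = 0.74), Psmb9 (0.53 and 0.52), Tapbp (0.50 and 0.53) and, in the other direction, Psmb10 (-0.62 and -0.55) also passed among the 10 members tested (adjusted permutation p of r between 0.0017 and 0.0224), and B2m did not (0.30, adjusted permutation p = 0.217). Within series 1, 2 and 4 the r of B2m was 0.83, -0.69 and 0.77, that of H2-K1 was 0.82, 0.53 and -0.03, that of Psmb10 was -0.60, 0.00 and -0.86, and that of Psmb9 was 0.62, 0.53 and 0.65. Among those that passed, Psmb9 alone had an r above 0.5 in each series. Neutrophil markers summed to 28.1 to 204 CPM in lung at 0 hr and to 0 to 3708 CPM at 6 hr, with 5 of 7 called higher, and the endothelial sum was 3082 to 16679 CPM against 13987 to 22248 CPM, with 2 of 12 called lower (beside 2.27% of all genes). Markers of other organs were also higher at 6 hr in lung, with cardiomyocyte markers at 83.7 to 2477 CPM against 55.9 to 155 CPM (3 of 6 called higher) and astrocyte and oligodendrocyte markers at 39.7 to 1098 CPM against 8.21 to 42.5 CPM (2 of 5 tested). The part of these in the class I values was not tested.

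**Figure D4:**
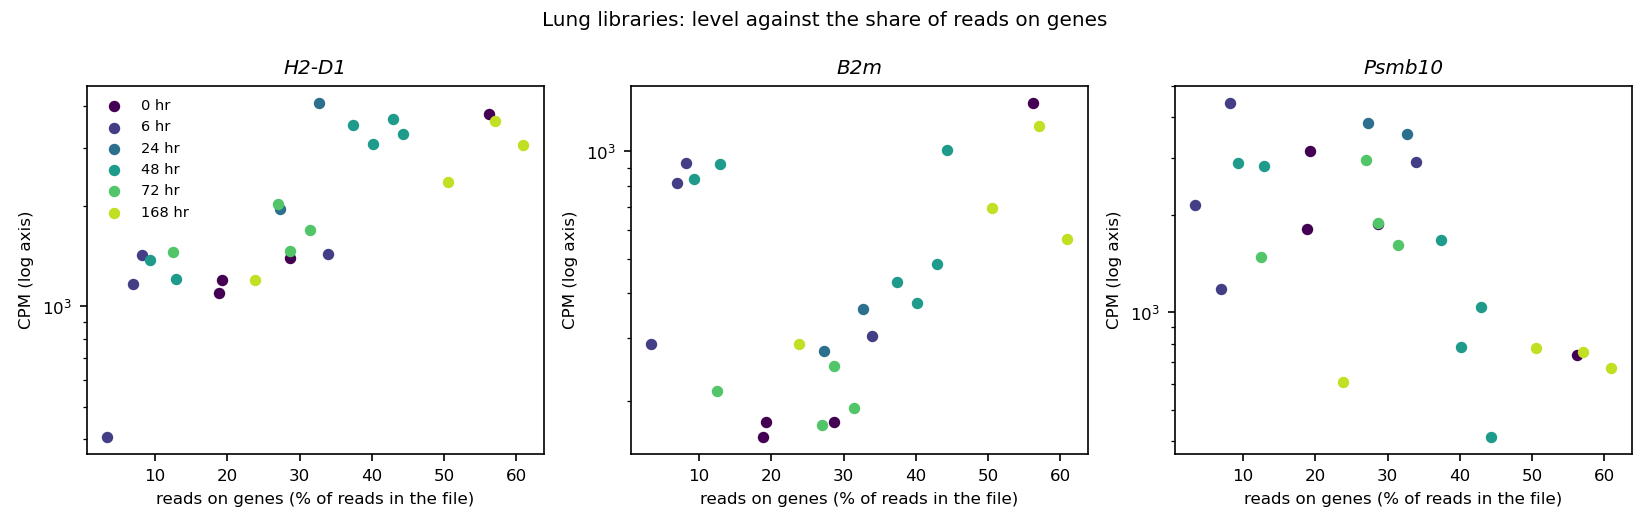
CPM (log axis) of H2-D1, B2m and Psmb10 in the 24 lung libraries against the percent of reads on genes, coloured by hours after LPS. H2-D1 rises along the axis (r = 0.81 on log2 CPM), Psmb10 falls (r = -0.62), and B2m shows no called relation (r = 0.30).

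A response called in brain or heart and not in lung is no difference by itself, so the difference was tested at 6 hr. Libraries of different tissues share animal codes, and the fit held no term for the animal. The lung response was lower than the heart response for 8 of 10 members, all but B2m and Nlrc5, beside 11.2% of genes, and for 9 of 10 without the series 1 libraries, all but B2m, beside 10.9%. Tap2 differed most, by -3.29 ± 0.70 on the log2 scale (adjusted p = 0.000696), followed by Psmb9 (-3.08 ± 0.69) and Psmb8 (-3.07 ± 0.63). The brain response exceeded the lung response for 3 of 10, Psmb8 (2.27 ± 0.62, adjusted p = 0.0103), H2-D1 (1.87 ± 0.50) and H2-K1 (1.87 ± 0.57), beside 7.54% of genes, for 1 of 10 without lung replicate 4 at 0 hr, for 5 of 10 with animal code as a block, and for the same 3 without the series 1 libraries, beside 8.08%. Nlrc5 was not called in either comparison with all libraries, with a brain minus lung difference of 1.00 ± 0.70. The median over all genes was itself shifted at 6 hr, at -0.37 for lung minus heart and 0.40 for brain minus lung.

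The brain and heart responses were not told apart at 6 hr for any member. The edgeR test called 0 of 10 in either direction (0.532% of genes were lower in brain), while 4 of 10 (Tap2, Tapbp, Psmb9 and Psmb10) had an unadjusted p under 0.05. Tap2 differed by -1.74 ± 0.64 (adjusted p = 0.233), Psmb9 by -1.63 ± 0.63 and Psmb10 by -1.51 ± 0.56, and B2m leaned the other way at 0.95 ± 0.55. Without the series 1 libraries 0 of 10 passed as well (1.93% of genes), with Tap2 at -1.72 ± 0.57 (adjusted p = 0.0535). At 24, 48, 72 and 168 hr edgeR called no difference in response between any 2 tissues for any member, with up to 4 of 10 at an unadjusted p under 0.05 in a comparison.

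The inducible subunits can also be set against the constitutive subunit that each replaces, in the same library. In heart the log2 ratio of Psmb8 to Psmb5 was 2.37 ± 0.0761 (SD, n = 5) at 0 hr and 3.82 ± 0.516 (n = 5) at 6 hr, where every library including that of series 1 lay above the controls. The differences at 6 hr in heart were 1.45 for Psmb8 over Psmb5, 1.38 for Psmb9 over Psmb6 and 2.39 for Psmb10 over Psmb7, each with p = 0.00794 in a two-sided exact permutation test. That p is the smallest that 5 libraries against 5 can give in this test. A lone ratio at this p could not pass adjustment over the 45 ratios and times tested. After adjustment 0 passed, and the smallest adjusted p was 0.107, so the adjusted test cannot decide whether the heart ratios changed. In brain Psmb8 over Psmb5 differed by 1.55 at 6 hr (exact permutation p = 0.0238, adjusted p = 0.179), and in lung the Psmb9 to Psmb6 ratio was lower at 48 hr by -1.79 (exact permutation p = 0.00952). Psmb5 had 0 counts in lung replicates 1 and 2 at 6 hr, so that ratio has no meaning there.

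Other genes of the pathway were read from lists by role, and they moved along with the members in part. Of 12 other class I and class I-like genes, 6 were called higher and 1 lower in brain at 6 hr, beside 4.21% and 2.23% of all genes, and 7 higher and 3 lower in heart, beside 22.4% and 20.3%. H2-Q6, H2-Q4 and H2-T23 are class I genes of the same cluster, and their log2 fold changes at 6 hr were 3.02, 2.63 and 1.28 in brain and 1.89, 2.32 and 1.78 in heart. Fcgrt, whose product also pairs with B2m but carries IgG rather than peptide, fell by -1.72 in brain and -1.68 in heart. Mr1, which shows microbial vitamin metabolites, was at -0.91 in brain, not called, and fell by -1.90 in heart. The H2-Q genes are close relatives of H2-K1 and H2-D1, and shared reads make their counts uncertain as well.

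Helpers of folding and trimming were called in part. Of 8 such genes 2 were called higher in brain at 6 hr (beside 4.21% of all genes) and 5 in heart (beside 22.4%). Erap1, the aminopeptidase that trims peptides in the endoplasmic reticulum, rose by 0.53 in brain and 1.07 in heart, and Tapbpl, a relative of tapasin, rose by 1.21 and 1.28. Calreticulin (Calr) was at 0.05 and 0.02 and Pdia3, its partner in the loading complex, at -0.09 and 0.45, none of them called. Hspa5, the main chaperone of the endoplasmic reticulum, rose by 2.19 in heart and was at 0.57, not called, in brain.

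The rest of the proteasome was called in heart and hardly in brain. In brain at 6 hr 0 of 3 constitutive catalytic subunits and 0 of 11 other 20S subunits were called higher, with list medians of 0.17 and 0.17. In heart 2 of 3 and 10 of 11 were, with medians of 0.94 and 0.94, beside 22.4% of all genes. Psmb5 was at 0.17 in brain and rose by 1.14 in heart, Psmb6 was at 0.04 and rose by 0.94, and Psmb7 was at 0.36 and 0.30, not called in either. The activator caps Psme1 and Psme2, which open the proteasome for peptides, rose in both tissues, by 1.08 and 1.12 in brain and by 1.77 and 2.84 in heart. These were the 2 of 6 regulators called in brain, and 5 of 6 were called in heart. The difference between the tissues was not tested for the lists.

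Regulators of the pathway were read in the same way. Of 10 interferon receptor and signalling genes 1 was called higher in brain at 6 hr, beside 4.21% of all genes, and 7 higher and 1 lower in heart, beside 22.4% and 20.3%. Among 8 IRF and RFX factors 3 were called higher in brain and 4 in heart: Irf1 rose by 1.49 and 2.84, Irf7 by 2.68 and 2.54 and Irf8 by 2.60 and 4.06. In lung Irf7, which amplifies type I interferon output, was the one gene of all these lists called at 6 hr (4.29), at 24 hr (3.68) and at 48 hr (2.76).

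At 24 hr the range of each list ran as follows. Among other class I genes it ran in brain from Fcgrt (-1.76) to H2-Q6 (2.39), in heart from Mr1 (-2.73) to H2-Q4 (1.84), all called, and in lung from Hfe (-2.0) to H2-T10 (1.43), neither called. Among the helpers it ran in brain from Calr (-0.10, not called) to Tapbpl (1.05, called), and in heart from Erap1 (0.33, not called) to Hspa5 (1.59, called). In lung it ran from Calr (-0.14) to Sec61a1 (1.11), a subunit of the translocon, neither called. The constitutive catalytic subunits stayed between Psmb6 (0.39) and Psmb7 (0.75) in brain, Psmb6 (0.57) and Psmb7 (0.72) in heart and Psmb7 (0.30) and Psmb5 (0.68) in lung, none called.

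Of the other 20S subunits, structural parts of the proteasome core, Psma1 (0.37) and Psmb3 (0.82) marked the range in brain, neither called, and Psma3 (0.71) and Psmb3 (1.26) in heart, both called, while in lung Psma3 (-0.58) and Psmb4 (1.34) were not called. Of the regulators, the range in brain was from the assembly chaperone Psmg1 (-0.44, not called) to Psme1 (0.99, called), in heart from Psme4 (0.11, not called) to the maturation protein Pomp (1.16, called), and in lung from Psme1 (-0.29) to Psme2 (0.99), neither called. In the interferon list the kinase Tyk2 was lowest in all 3 tissues, at -0.99 in brain, -0.83 in lung and -1.12 in heart, none called. Stat2 was highest in brain (1.05) and lung (1.33), neither called, and the kinase Jak2 in heart (0.82, adjusted p = 0.049, called). Among the factors Rfxank, a subunit of the RFX complex, was lowest throughout, called in brain (-0.85) but not in lung (-0.96) or heart (-0.55), and the highest was Irf8 in brain (3.98) and heart (3.52) and Irf7 in lung, all called. In the class II list Cd74 was highest, at 0.27 in brain, 0.32 in lung and 0.86 in heart, none called, and the lowest was H2-Eb1 in brain (-1.59, called) and heart (-0.50, not called) and the transactivator Ciita in lung (-0.93, not called).

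Class II genes, which present peptides from outside the cell, were not called higher after LPS in any tissue, of 4 tested in brain and 5 in lung and heart. In brain 1 of 4 was called lower at 24 hr (beside 4.66% of all genes), 3 of 4 at 48 hr (6.12%) and 3 of 4 at 72 hr (0.546%), and the class II beta chain H2-Eb1 fell by -2.16 ± 0.31 at 48 hr and -2.36 ± 0.36 at 72 hr. Cd74, the invariant chain, was at 0.34 and 0.45 at 6 hr in brain and heart, not called.

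**Figure D5:**
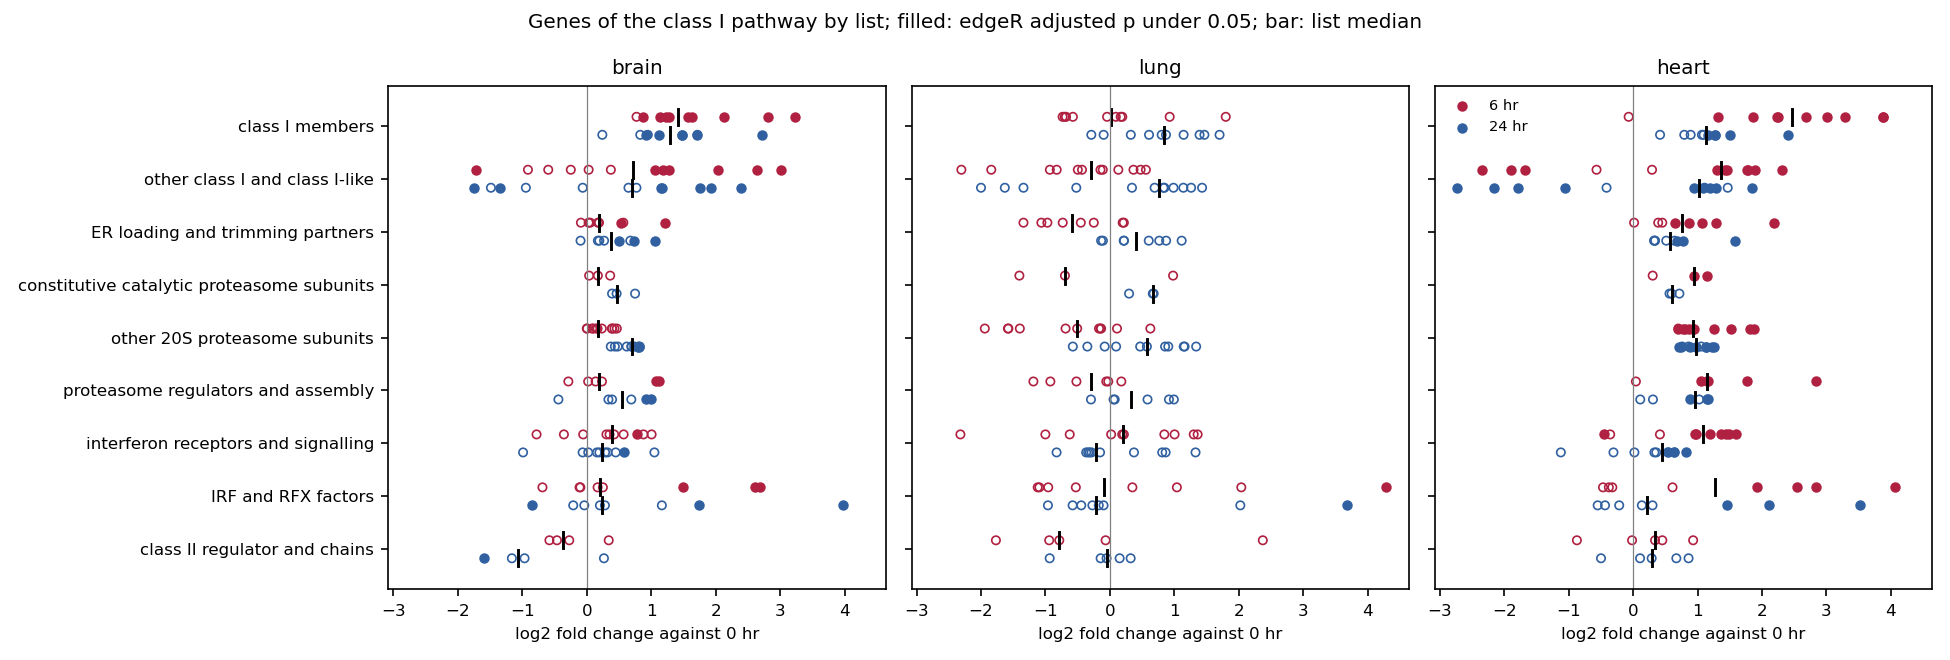
Log2 fold change (horizontal axis) of each gene of 9 lists at 6 and 24 hr after LPS in brain, lung and heart, filled where the adjusted p was below 0.05, with a bar at each list median. The class I members lie to the right of 0 in brain and heart (medians 1.42 and 2.47 at 6 hr) apart from B2m at 6 hr in heart (-0.07), the class II list does not, and in lung the filled points are those of Irf7.

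The genes whose course was most like that of the members were found among 9007 candidates by the Pearson correlation of their 15 log2 fold changes (5 times by 3 tissues) with the mean of the members. All 5 comparisons of a tissue share its 0 hr libraries, so the correlations are descriptions only. Leading the order were Ms4a4d (r = 0.940), Csrnp1 (0.940) and Irf1 (0.938), followed by Ube2l6, Ogfr, Rasip1, Cebpd, Ifi47, Shisa5 and Ppp1r15b (0.927). Ms4a4d, which codes for a membrane protein, had log2 fold changes of 3.33 at 6 hr in brain and 5.29 in heart, and 1.21 in lung. Irf1, an interferon regulatory factor, was the only one of the 10 that belongs to the lists. Within the members the likeness to the mean of the other 9 was lowest for B2m (r = 0.18) and Psmb9 (0.66), and it was 0.73 to 0.96 for the others.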

How the data were processed

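The deposited files hold read counts per Ensembl gene, 1 file for each sequencing run, which the authors made from anti-HA pulldown RNA, aligned and counted per the submitters' processing notes with STAR 2.4.2 and HTSeq 0.6.1 on mm10. The annotation release and the strand setting are not given in the sources used here. The 217 runs were summed to 98 libraries, and 18 with under 3% of reads on genes were left out. Symbols were matched for 52403 of 52550 identifiers. Library series and 35 animal codes were read from the file names, since the labels give no sequencing batch, and the pairing by replicate number was treated as an alternative only. Differences were tested with edgeR 4.0.16 (limma 3.58.1, R 4.3.3): TMM scaling, filterByExpr, a quasi-likelihood F test with time and library series as terms in each tissue, Benjamini-Hochberg adjustment over all genes tested and a threshold of 0.05. Tissue comparisons used 1 fit of all 80 libraries. The SE is the size of the log2 fold change over the square root of F. Ratios and the lung correlations used log2 CPM with a prior count of 2. Ratios had exact permutation tests, and the lung correlations had 100000 permutations (Python 3.11.15, scipy 1.17.1). Gene models came from GRCm38 and promoter windows from RefSeq. The code was tested on simulated data. Depth was 284457 to 43417945 counts per library. The text names all members, in each list the largest and smallest fold change at 24 hr per tissue with further genes by name (1 of them is not reported here), and the 10 genes most alike in course. The members and lists were chosen with earlier results of these data known. Alternatives were DESeq2 1.42.0, limma-voom, other scaling, filters, covariates, blocks and libraries. The 6 hr libraries of series 1 were set aside as an alternative chosen after seeing the data.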

Additional observations from a re-analysis of the deposited data

Results flagged for a closer look

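In 12 of 170 groups of 4 to 6 libraries, 1 library lay farther from the rest than Dixon's 95% limit for its group, and chance gives about 1 in 20. Of these, 8 were the library labelled 6 hr in series 1. In brain it was lowest for H2-K1 (249.7 CPM against 692 to 857) and H2-D1 (324 CPM against 843 to 933). In heart it was lowest for H2-K1 (1216 CPM against 7813 to 11786), H2-D1 (1628 CPM), Tapbp (569.5 CPM) and Psmb9 (125 CPM against 580.4 to 877). In lung it was lowest for H2-D1 (404 CPM) and Psmb8 (0 CPM, from 0 counts at a depth of 284457). Its low values in brain and heart went with acute LPS genes below every other 6 hr library, and the cause was not tested.

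B2m in lung replicate 4 at 0 hr was at 1368 CPM against 158 to 174 in the other 3 controls. Tap1 in heart replicate 1 at 0 hr was at 158 CPM against 82.7 to 94.2. Psmb8 in brain replicate 5 at 72 hr was at 135 CPM against 71.2 to 78.9, and in heart replicate 4 at 48 hr it was at 205 CPM against 349 to 395.

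The response at 6 hr differed between brain and lung for 3 members and between lung and heart for 8 members by the interaction test, and the causes were not tested.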

How the results depend on the processing

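No called value changed sign under any alternative in the comparisons checked for this. These were each time against 0 hr, brain 168 against 72 hr, heart 24 against 6 hr, tissues at 0 hr and responses at 6 hr. Signs in the other neighbouring times and in the later responses were not checked. With all 3 tissues in 1 fit, fewer members were called in brain (5 higher at 6 hr, 0 at 72 hr, 13 over all times, 0 between neighbouring times with 0 lower from 72 to 168 hr) and in heart (1 at 24 hr, 0 at 48 hr), and more in lung (1 at 6 hr, 2 over all times, 3 between neighbouring times). DESeq2 called 8 in heart at 24 hr, 3 at 48 hr, 8 between neighbouring times, and 1 in lung at 6 hr and over all times. RLE scaling called 1 in lung at 6 hr and over all times. With no filter on low counts, heart had 8 at 24 hr, 4 at 48 hr and 8 between neighbouring times, brain had 6 between neighbouring times, and brain minus heart had 1 lower at 6 hr. With no library series covariate, heart had 8 and 3 at 24 and 48 hr, brain had 0 between neighbouring times and 0 lower from 72 to 168 hr, and lung exceeded heart for 2. With all 98 libraries these were 8, 3, 0, 0 and 2, with 1 for brain minus lung at 6 hr and 7 differences of response in all. With limma-voom, heart had 0 at 48 hr and 3 lower from 6 to 24 hr (3 between neighbouring times), and brain had 1 lower from 72 to 168 hr (1 between neighbouring times). With animal code as a block, 5 members passed for brain minus lung, 2 were lower in lung than in heart, and 19 differences of response passed. Without the series 1 libraries labelled 6 hr, heart had 9 at 24 hr, 5 at 48 hr, 23 over all times, 8 lower from 6 to 24 hr and 11 between neighbouring times. Apart from that last fit, the share of all genes called is not given for the alternatives. Whether a moved count is particular to the members thus cannot be read from it. The causes were not tested.

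With the replicate block, brain and heart each had 2 at 24 hr, heart had 0 at 48 hr and lung exceeded heart for 2; brain at 6 hr stayed at 9. The numbers do not pair the libraries (median correlation of same-numbered libraries -0.03 in brain, -0.04 in lung, -0.02 in heart).

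Leaving out 1 library at a time gave, in brain, 7 to 10 members at 6 hr, 4 to 9 at 24 hr, 2 to 4 at 48 hr, 17 to 25 over all times and 0 to 2 from 72 to 168 hr and between neighbouring times. In heart it gave 2 to 9 at 24 hr, 0 to 5 at 48 hr, 11 to 23 over all times, 0 to 8 from 6 to 24 hr and 0 to 11 between neighbouring times. In lung it gave 0 to 1 over all times and 0 to 3 between neighbouring times. Between tissues it gave 2 to 4 higher in lung than heart, 1 to 3 for brain minus lung at 6 hr and 21 to 25 differences at 0 hr, and the differences of response at later hours were not refitted this way. The depth of lung replicate 4 at 6 hr, where 1 count is 28.9 CPM, limits what can be seen there.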
